A study of Mus musculus with 6 samples.

Results

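Single-exon exonic circRNAs are circular RNAs in which the end of 1 exon is joined back to the start of the same exon. They were taken from the aortic circRNA table as the entries assigned to a gene, not typed as intronic circles (ciRNAs), and given an exon count of 1. The rule found 507 of 10023 entries (5.06%), which carried 3750 of 37393 back-spliced reads (10.03%). Exonic circRNAs of 2 or more exons, used for comparison, numbered 8485 and carried 30980 reads. The study sequenced aortas of male ApoE-/- mice on the C57BL/6 strain, which were 6 weeks old when they were put on a high-fat diet (HFD) or a normal diet (ND) for 12 weeks. All 6 mice lacked apolipoprotein E, so the controls carried the same deletion as the HFD mice and no wild-type aorta was compared. Each diet had 3 aortas.

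A circRNA forms when the spliceosome joins a downstream splice donor to an upstream acceptor, a reaction called back-splicing. The product has no free ends and resists exonucleases, so circles can accumulate where linear transcripts turn over. Reads that cross the back-splice junction are the evidence for a circle, because the linear transcript does not have that order of bases. Several well-known circRNAs, such as those of Cdr1as, Hipk3, Zfp609 and Slc8a1, are made of a single exon.

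The junctions below are shown because the back-splice of a single exon fixes the whole circle and because these members carry the results that follow. Each line gives the last 15 bases of the exon in lower case and then its first 15 bases in capitals, on the strand of the transcript, read from GRCm38 with the exon boundaries of GENCODE vM21.
Nfix: ttgtccacactccggGATGAGTTCCACCCG
Hipk3: atctcgctactacagGTATGGCCTCACAAG
Hipk2: atccagatactaccgGTATGGCCTCACATG
Slc8a1: gaacgatgaaatagtGTTGGAGCAGTTGGA
Tcf20: atcgccagagagatgGAGGGCTGCTGGCCT
Pde5a: aaagatgcctatgagAGACATGGTCAACGC
Zfp609: gtcaagtctgaaaagCAATGATGTTGTCCA
Glis3: cccaacaagtgtacgGTCCGTTATTTTGCA
C230004F18Rik: gtctgccgtatccagGGTTTCCAGTGGTGC
The exons lay at chr8:84771784-84772315 (Nfix, minus strand), chr2:104470749-104471847 (Hipk3, minus), chr6:38818230-38819313 (Hipk2, minus), chr17:81647809-81649638 (Slc8a1, minus) and chr15:82851513-82857284 (Tcf20, minus). Those of Pde5a, Zfp609, Glis3 and C230004F18Rik lay at chr3:122747889-122748477 (plus), chr9:65794622-65795495 (minus), chr19:28530873-28531986 (minus) and chrX:61183248-61186174 (plus). The junctions of the paralogs Hipk2 and Hipk3, which encode homeodomain-interacting protein kinases, were identical at 25 of 30 bases.

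Reads of single-exon circRNAs were concentrated in few members. Of the 507 entries, 181 had 1 read in all and 127 had 2 reads, and the 10 most abundant held 43.3% of the reads. Reads were found in only 1 aorta for 321 members, in 2 to 5 aortas for 156 and in all 6 aortas for 30, and those 30 carried 58.1% of the reads (2180). The 507 entries came from 442 host genes, of which 384 had 1 single-exon entry and 58 had more. No exonic circRNA of 2 or more exons was listed for 170 hosts. Of the 272 hosts with both kinds, single-exon reads equalled or outnumbered multi-exon reads in 105.

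**Figure D1:**
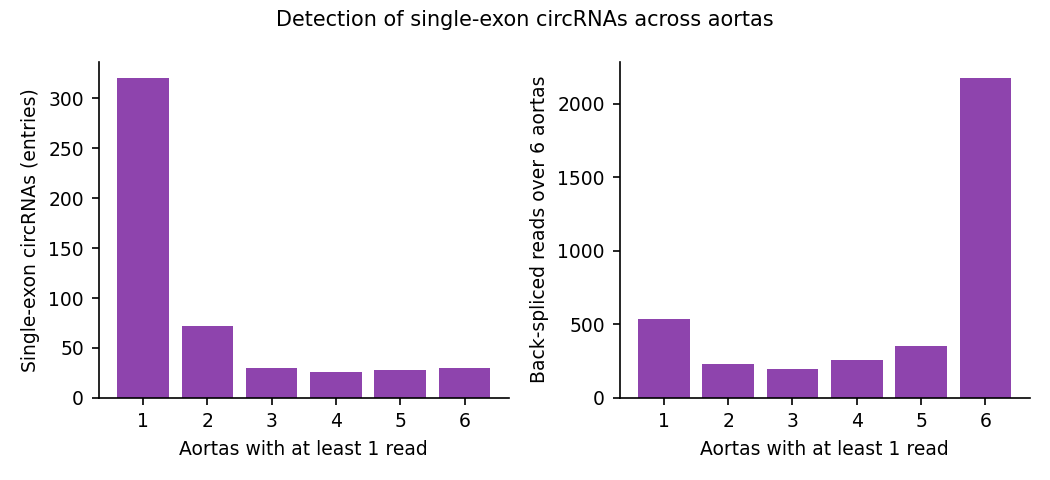
Bars show, for each number of aortas with at least 1 read (horizontal axis, 1 to 6), the number of single-exon circRNA entries (left) and their back-spliced reads summed over the 6 aortas (right). The 321 entries seen in 1 aorta held 535 reads, and the 30 entries seen in 6 aortas held 2180 reads.

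The back-splices of most members coincided with an annotated exon. Both ends of 429 entries matched an exon of GENCODE vM21 exactly, and 23 more matched except for a start 1 base inside the exon. The other 55 entries (314 reads) matched no exon. Among the 452 matched entries, 449 were internal exons, 2 were first exons and 1 was the only exon of its transcript, Snord15a, a small nucleolar RNA gene on chromosome 7 with 0, 11 and 0 reads under HFD and 0, 11 and 1 under ND. The exon was coding throughout for 262 entries and in part for 152, lay in a noncoding transcript for 33 and was untranslated for 5. The start codon lay in the exon of 146 entries, and 115 of these exons were exon 2.

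Circularized exons were long. The 433 distinct exons had a median length of 505 bases, against 123 bases for 180243 internal exons of protein-coding transcripts, and 67.4% of them exceeded 300 bases, against 4.59% of internal exons. No member exon was shorter than 141 bases, while 61.5% of the internal exons were. Over the 69450 internal exons of at least that length the median was 181 bases and 11.9% exceeded 300 bases. The length of the member exons was a multiple of 3 in 36.3% of them, against 40.4% of internal exons. Among the 254 exons that were coding throughout, 108 (42.5%) were a multiple of 3. The genomic span of the 507 entries had a median of 473 bases (interquartile range 226 to 883, range 135 to 5772). It was 353 bases for members in 1 aorta, 633.5 for those in 2 to 5 aortas and 902 for those in 6 aortas. The median was 2607 bases for exonic circRNAs of 2 exons, a difference that the choice by exon number sets in part. The longest member was that of Tcf20, a transcriptional co-regulator. The shortest with reads in at least 2 aortas was that of Hivep1, a zinc finger transcription factor, with 143 bases and 1, 0 and 2 reads under HFD and 2, 1 and 0 under ND.

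**Figure D2:**
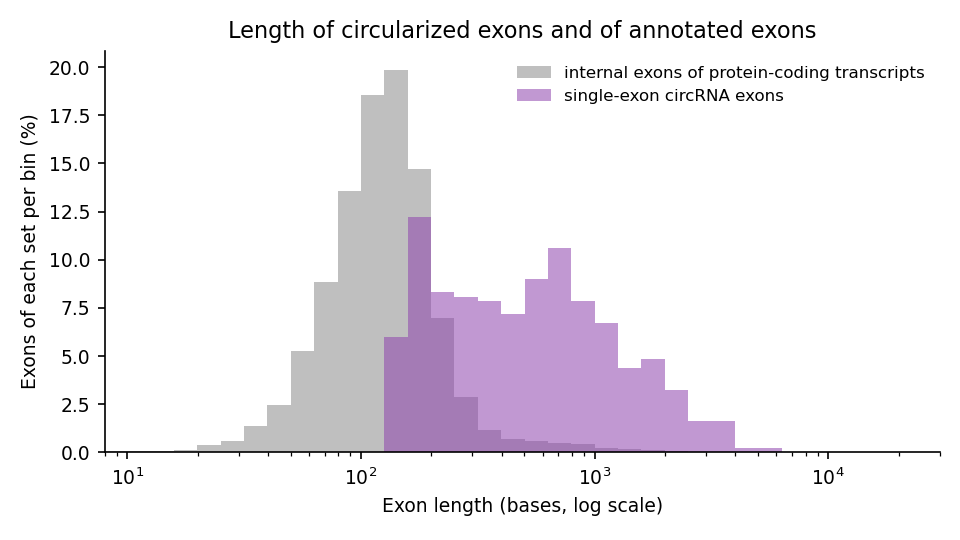
Histograms give the percentage of exons in each length bin (logarithmic horizontal axis, bases) for the 433 distinct exons of single-exon circRNAs and for 180243 internal exons of protein-coding transcripts. The circularized exons lie to the right, with a median of 505 against 123 bases, and none is shorter than 141 bases.

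The introns on both sides were long as well. The median intron before the exon was 15580 bases and the median intron after it 15867 bases, against 7271 and 5805 bases around exonic circRNAs of 2 or more exons. Around members that were exon 2 the medians were 22904 and 23281 bases. The exon of Nfix was flanked by introns of 1038 and 43816 bases, and that of Hipk3 by introns of 22100 and 24113 bases.

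Exon 2 stood out among the positions. It made up 201 of the 507 entries and 2570 of the 3750 reads (68.5%), followed by exon 3 with 93 entries and 331 reads. Of the 30 members seen in all 6 aortas, 21 were exon 2, against 111 of the 321 members seen in 1 aorta. Among the 433 distinct exons 44.1% were exon 2, while 17.0% of internal exons were exon 2 of at least 1 transcript. The exon rank was taken from the transcript named in the table, or from another transcript of the gene where that one did not hold the exon. Within the aortas, exon 2 held 71.0%, 66.8% and 70.9% of single-exon reads under HFD and 68.8%, 65.7% and 68.7% under ND. The share of multi-exon reads in circles that began at exon 2 was 36.8%, 35.7% and 38.0% under HFD and 33.2%, 37.6% and 35.4% under ND. The difference was 32.6 percentage points on average and had the same sign in 6 of 6 aortas (exact paired permutation test, two-sided, p = 0.031, the smallest that 6 pairs allow). It was 25.3 points without the Nfix circle, again in 6 of 6 aortas. This comparison was chosen after seeing the data.

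Detected single-exon circRNAs carried more reads on average than detected multi-exon ones in the same aorta, and a few abundant members carried much of that difference. Reads per detected entry were 3.36, 3.84 and 3.57 under HFD and 4.15, 3.86 and 4.13 under ND for single-exon circRNAs, and 2.10 to 2.59 over the 6 aortas for multi-exon circRNAs. The classes did not overlap. The mean difference of 1.46 reads was found in 6 of 6 aortas (exact paired permutation test, two-sided, p = 0.031). Without the most abundant entry of each class it was 0.789 reads, in 6 of 6 aortas. Without the 10 most abundant members and the same share of multi-exon entries (1.97%, 167 entries), it was 0.477 reads (2.31 against 1.83), in 6 of 6 aortas (exact paired permutation test, two-sided, p = 0.031). With 10 entries left out of each class, a far smaller share of the larger class, it was 0.103 reads, in 6 of 6 aortas. Both of these alternatives were chosen after seeing the data. The share of detected entries with a single read was 41.9% ± 4.94 (SD, n = 6) for single-exon and 51.5% ± 4.03 for multi-exon circRNAs, and was lower for single-exon circRNAs in 5 of 6 aortas (exact paired permutation test, two-sided, p = 0.0625).

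The diet groups differed in depth, with 4694 to 5621 back-spliced reads in the HFD aortas and 7142 to 7585 in the ND aortas, and 3 reads, taken as the floor of detection, corresponded to 49.8 to 52.0 and 40.7 to 43.0 SRPBM, the normalized unit of the table (back-spliced reads scaled to the mapped reads of the library). In bulk tissue, fewer cells of a type and less RNA per cell cannot be told apart. Summed circRNA levels of the smooth muscle marker genes were 121 to 243 SRPBM under HFD and 247 to 430 under ND, from 6 of 10 genes, with Tagln and Cnn1 among those with no circRNA listed. Adipocyte marker genes gave 116 to 121 SRPBM under HFD and 176 to 426 under ND, from 6 of 10 genes, with Adipoq and Plin1 not listed. Leukocyte marker genes gave 121 to 216 and 71.6 to 163 SRPBM, from 7 of 10 genes, with Cd68 and Cd3e not listed. Endothelial genes gave 66.3 to 138 and 27.5 to 71.6 SRPBM (4 of 10 genes, Cdh5 and Kdr not listed), fibroblast genes 0 to 68.9 and 0 to 14.3 SRPBM (2 of 8, Pdgfra and Dcn not listed), and striated muscle genes 16.6 to 138 and 27.5 to 81.4 SRPBM (3 of 10, Ckm and Myh1 not listed). The smooth muscle and adipocyte sums did not overlap between diets, and their part in the diet differences below was not tested.

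Single-exon circRNAs took a larger share of back-spliced reads in each HFD aorta than in any ND aorta. The shares were 11.0%, 10.2% and 11.4% under HFD and 8.93%, 10.1% and 9.46% under ND. The groups did not overlap, but the gap was narrow, since HFD replicate 2 had a 95% Wilson interval of 9.48% to 11.1% and ND replicate 2 one of 9.38% to 10.8%. The means were 10.9% ± 0.574 and 9.48% ± 0.564 (SD, n = 3 per diet), a difference of 1.40 percentage points with an exact permutation p of 0.1 (two-sided), which is the smallest that 3 against 3 allows. Summed levels in SRPBM, which relate to all mapped reads and not to back-spliced reads, were 9359 ± 331 under HFD and 9728 ± 488 under ND, and these overlapped (exact permutation test, two-sided, p = 0.4, n = 3 per diet).

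Fewer members were detected in the HFD aortas, which were also the shallower ones. The numbers were 154, 150 and 155 under HFD and 163, 186 and 171 under ND, a difference of -20.3 without overlap (exact permutation test, two-sided, p = 0.1, n = 3 per diet). At an equal number of 4694 back-spliced reads, the expected numbers were 154, 140.3 and 152.7 under HFD and 129.7, 151.1 and 135.7 under ND. The difference then had the opposite sign, 10.2, and the groups overlapped (exact permutation p = 0.2). This step evens out both library depth and back-spliced reads per mapped read, and the part of each was not tested. Counting only members with at least 2 reads in an aorta gave 93.3 ± 6.66 under HFD and 95.3 ± 5.51 under ND (SD, n = 3 per diet), a difference of -2 with overlap (exact permutation test, two-sided, p = 0.8).

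**Figure D3:**
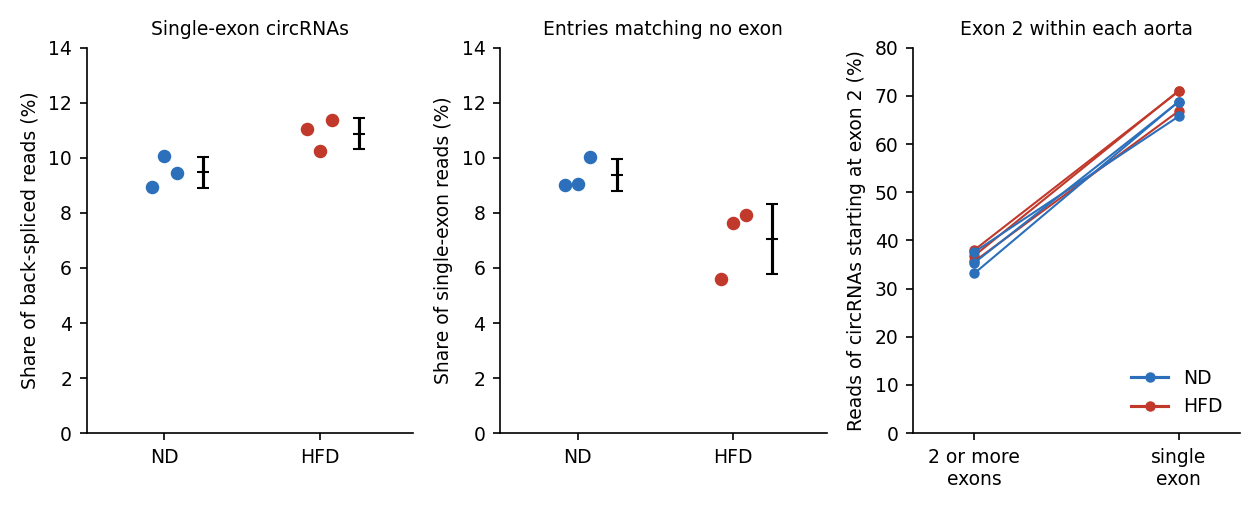
Points are aortas, and black bars give the mean ± SD of 3 aortas per diet. The left panel shows the percentage of back-spliced reads in single-exon circRNAs, 8.93 to 10.1 under ND and 10.2 to 11.4 under HFD, the middle panel the percentage of single-exon reads in entries that matched no annotated exon, and the right panel the percentage of reads in circles that began at exon 2, with a line joining the 2 classes of each aorta.

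For the diet comparison of single members, a quasi-likelihood model of edgeR was fitted to the 2564 circRNAs of the table with reads in at least 2 aortas. It covered 186 members with 85.7% of the single-exon reads, and 65 of them had at least 10 reads. At an unadjusted p below 0.05 and an absolute log2 fold change above 1, the criteria of the study, 4 members were called (2.15%), 1 higher and 3 lower under HFD. Over all circRNAs tested the percentage called was 4.06, with 1.29 higher and 2.77 lower. No member had an adjusted p below 0.05 by edgeR (the smallest was 0.576), against 0.156% of all circRNAs tested, and 6 members had an unadjusted p below 0.05, against 4.17%. DESeq2 and limma also gave 0 members with an adjusted p below 0.05, and 2 (1.08%) and 6 (3.23%) with an unadjusted p below 0.05, against 0.975% and 3.74% of all circRNAs in those fits. Leaving out HFD replicate 3 gave 1 called member of 165 (0.606%, against 2.63% of all circRNAs in that fit) and leaving out ND replicate 2 gave 9 of 160 (5.63% against 5.73%). With the replicate number as a block there was 1 of 186 (0.538% against 1.25%). The median log2 fold change of the 186 members was 0.23, against -0.19 over all circRNAs tested, and its sign was not stable. Without HFD replicates 1, 2 and 3 in turn it was 0.05, 0.12 and 0.01, against -0.08, -0.13 and -0.12 over all circRNAs in the same fits. Without ND replicates 1, 2 and 3 it was -0.03, 0.03 and -0.07, against -0.24, -0.20 and -0.25, and with no filter, over all 507 members, it was -0.04 against -1.09. The median of the members lay above that of all circRNAs in each of these fits, which share aortas, and the offset was not tested. Of the 186 members, 35 had reads in 1 diet only and so passed the filter through that diet alone. Scaling by library size alone moved the medians of members and of all circRNAs to 0.43 and 0.06 and the calls to 4 higher and 1 lower (2.69% of members against 3.198% of all circRNAs in that fit), and DESeq2 gave 2 higher and 0 lower (1.08% against 0.897%).

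The called member with higher reads under HFD was the circle of Glis3, a zinc finger transcription factor known for its part in pancreatic beta cell development. Exon 4 of 11 formed a circle of 1114 bases with 5, 7 and 5 reads under HFD and 0, 1 and 1 under ND. All 3 HFD aortas lay above all 3 ND aortas. Scaled to a common library size with TMM factors, the means were 6.32 ± 0.697 and 0.594 ± 0.515 reads (SD, n = 3 per diet). The fitted log2 fold change was 3.16 (SE 1.25), with an unadjusted p of 0.0115 and an adjusted p of 0.576 by edgeR's quasi-likelihood test. The 17 HFD and 2 ND reads gave a ratio of 10.6 after scaling, with an exact 95% interval of 2.51 to 94.3 that covers counting error only. Each ND count lay below the floor of 3 reads, and the scaled HFD mean was 2.33 times that floor. The member met the criteria in all 15 alternative fits, with a log2 fold change of 2.32 to 3.59, and held 51.4% of the circular reads of its gene.

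The 3 called members with lower reads under HFD had no read in any HFD aorta and few under ND, so no fold is given. They passed the filter of reads in at least 2 aortas through the ND aortas alone, the diet in which they are higher, so their p-values are listed as a description and support no direction. With no filter, Elf1 (unadjusted p = 0.0615) and Nsd1 (0.0604) were not called and Rtn4 was (0.032). Rtn4, which encodes a reticulon of the endoplasmic reticulum, had 7, 0 and 3 reads under ND on its exon 3 (unadjusted p = 0.0278). Elf1, an ETS family transcription factor, had 2, 4 and 2 reads in an entry that matched no exon (unadjusted p = 0.0467). Nsd1, a histone methyltransferase, had 1, 1 and 6 reads on its exon 3 (unadjusted p = 0.0485). The adjusted p by edgeR's quasi-likelihood test was 0.576 for each. Rtn4 and Elf1 each met the criteria in 5 of the alternative fits that gave a value (12 and 14 fits) and Nsd1 in 3 of 14.

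**Figure D4:**
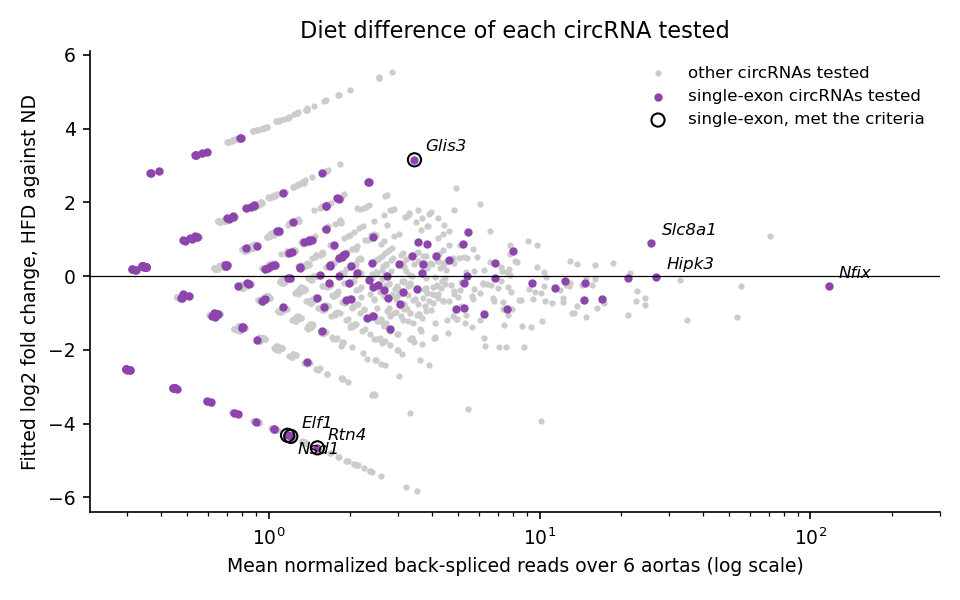
Each point is a circRNA tested, placed by its mean normalized back-spliced reads over 6 aortas (logarithmic horizontal axis) and its fitted log2 fold change of HFD against ND (vertical axis); purple points are the 186 single-exon circRNAs and rings mark the 4 that met the criteria. The bands at the top and bottom left are entries with no read in 1 diet, whose fitted values depend on the prior count of the model, and 3 of the 4 rings lie in the lower band.

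Nfix, which encodes a nuclear factor I transcription factor, gave the most abundant member. Its exon 2, coding throughout and 532 bases long, had 97, 98 and 87 reads under HFD and 134, 127 and 164 under ND, and this circle held 99.0% of the circular reads of the gene. In reads scaled by TMM, the groups did not overlap, at 106 ± 7.15 and 128 ± 13.4 (SD, n = 3 per diet). The log2 fold change was -0.27 (SE 0.12; adjusted p = 0.576 by edgeR's quasi-likelihood test), short of the criterion of 1, and was -0.01 when library size alone was the scale.

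Slc8a1, the cardiac and vascular sodium-calcium exchanger, is a long-known source of a circle from its exon 2, which contains the start codon. Its member of 1830 bases had 20, 29 and 40 reads under HFD and 27, 12 and 21 under ND. The scaled reads overlapped between diets, at 33.6 ± 12.7 and 18.1 ± 7.02 (SD, n = 3 per diet). The log2 fold change was 0.89 (SE 0.35), with an unadjusted p of 0.0109 and an adjusted p of 0.576 by edgeR's quasi-likelihood test. It lay below the criterion of 1 in the main model and above it in 4 of 15 alternatives. These were library size alone (1.15), DESeq2 (1.09) and the fits without HFD replicate 1 (1.14) or ND replicate 1 (1.11). Without HFD replicate 1 or ND replicate 1 the unadjusted p was 0.0035 and 0.035 by edgeR's quasi-likelihood test. Without HFD replicates 2 and 3 and ND replicates 2 and 3 in turn it was 0.105, 0.153, 0.118 and 0.141, at log2 fold changes of 0.63 to 0.87.

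Of the members of the kinase list, 4 were tested and none was called in the main model, where the percentage called over all circRNAs was 4.06. The Hipk3 circle of 1099 bases, also exon 2 with the start codon, had 18, 22 and 31 reads under HFD and 31, 34 and 25 under ND, and its scaled means were 26.8 ± 8.86 and 27.2 ± 4.88 (SD, n = 3 per diet). The circle of Hipk2 had 0, 4 and 0 reads under HFD and 0, 0 and 1 under ND. Pde5a encodes the phosphodiesterase that degrades cGMP in smooth muscle, and its exon 2 had 13, 10 and 7 reads under HFD and 25, 19 and 15 under ND. The scaled Pde5a reads overlapped between diets, with a log2 fold change of -0.66 (SE 0.50; adjusted p = 0.644 by edgeR's quasi-likelihood test). Insr, the insulin receptor, had 8, 6 and 9 reads under HFD and 17, 7 and 9 under ND. Lrp6, a Wnt co-receptor, had 0, 3 and 2 reads under HFD and 0, 7 and 0 under ND.

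**Figure D5:**
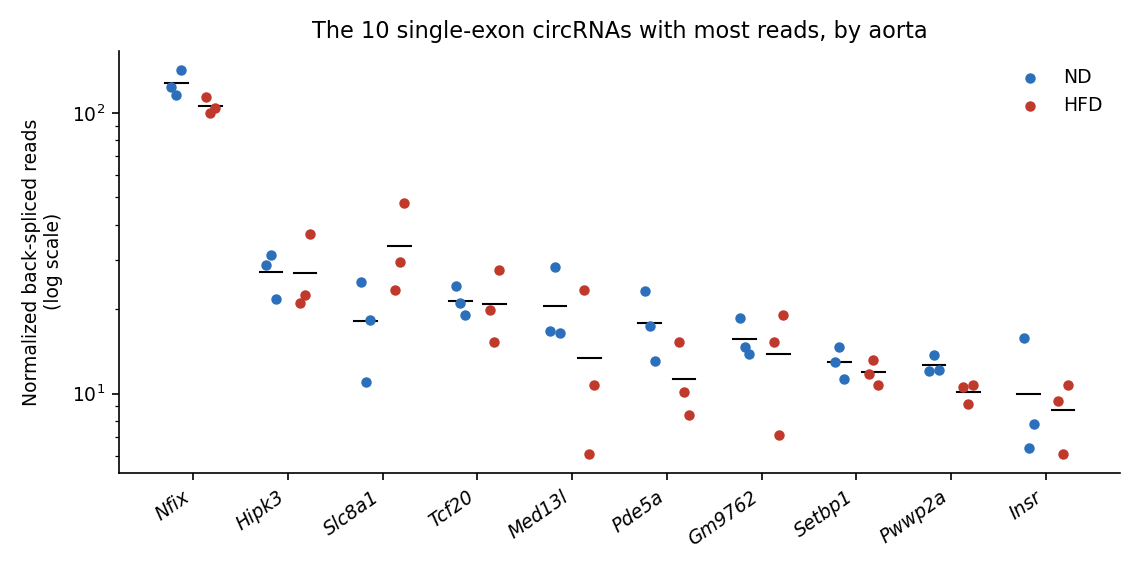
Normalized back-spliced reads (logarithmic vertical axis) of the 10 single-exon circRNAs with most reads are shown for each aorta, ND in blue and HFD in red, with a black line at the mean of 3 aortas. The diets overlap for 8 of the 10 and do not for Nfix and Pwwp2a, for which the ND points are higher on this scale. Separation of 3 against 3 gives an exact permutation p no smaller than 0.1, and its frequency over all circRNAs is not given here.

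Among regulators of transcription and chromatin, Tcf20 had 17, 15 and 23 reads under HFD and 26, 23 and 22 under ND. Med13l, a subunit of the Mediator kinase module, had 20, 6 and 9 reads under HFD and 18, 31 and 19 under ND on a 238-base exon of a noncoding transcript. Both overlapped between diets once scaled, and Med13l met the criteria in 1 of 15 alternatives, the fit without HFD replicate 1 (log2 fold change -1.25). Setbp1 had 10, 13 and 9 reads under HFD and 14, 16 and 13 under ND, and also overlapped on that scale. Pwwp2a, a chromatin reader, had 9, 9 and 9 reads under HFD and 13, 15 and 14 under ND, and its scaled means of 10.1 ± 0.869 and 12.6 ± 0.938 did not overlap (SD, n = 3 per diet; exact permutation test, two-sided, p = 0.1, the smallest possible). Its log2 fold change was -0.32 (SE 0.58) and -0.06 with library size alone. Zfp609, a zinc finger protein, had 7, 5 and 6 reads under HFD and 4, 5 and 3 under ND. The scaled reads of Zfp609 did not overlap, at 6.82 ± 1.59 and 3.63 ± 0.986 (SD, n = 3 per diet; exact permutation test, two-sided, p = 0.1), and the log2 fold change was 0.89 (SE 0.90; adjusted p = 0.95 by edgeR's quasi-likelihood test). Cdyl had 0, 2 and 1 reads under HFD and 2, 1 and 0 under ND, and Foxo3 had 2 reads, both in ND replicate 1.

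Other known hosts were represented by few reads. Pvt1, a long noncoding RNA gene next to Myc, had 11, 7 and 8 reads under HFD and 10, 6 and 4 under ND. Fat1, an atypical cadherin, had 7, 12 and 2 reads under HFD and 1, 4 and 6 under ND. Mbnl1, a splicing regulator, had 0, 5 and 6 reads under HFD and 0, 1 and 1 under ND (log2 fold change 2.54, SE 1.41, adjusted p = 0.576 by edgeR's quasi-likelihood test), and met the criteria in 3 of 15 alternatives, namely library size alone, entries 1 base apart summed and the fit without HFD replicate 1. Its 11 HFD and 2 ND reads gave a ratio of 6.84 after scaling, with an exact 95% interval of 1.49 to 63.5 for counting error only. Each ND count of Mbnl1 lay below the floor of 3 reads, and the scaled HFD mean was 1.51 times that floor. Pvt1, Fat1 and Mbnl1 all overlapped between diets. Of 15 genes listed as known hosts of single-exon circles, 13 had a member, and none was found for Cdr1 or Sry.

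The circle with the most distinctive sequence was the one listed under C230004F18Rik, which RefSeq gives the synonym Cdr1os and which lies antisense to Cdr1. Circular RNA from this exon is known as Cdr1as and for its many binding sites for the microRNA miR-7. Its exon of 2927 bases held 123 matches to GTCTTCC, the complement of the seed of miR-7a-5p, searched on the transcript strand only. The mature microRNA from RefSeq is shown with its seed, bases 2 to 8, in capitals.
mmu-miR-7a-5p: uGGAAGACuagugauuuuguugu
No other of the 433 exons had more than 2 matches, 411 had none, and 5.1% had at least 1. The circle had 2, 2 and 2 reads under HFD and 0, 7 and 1 under ND, and the diets overlapped. A second entry with a start 1 base away had 5 reads, all in ND replicate 1. With these entries summed the log2 fold change went from -0.10 (SE 1.28) to -0.71.

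The host groups were small. Of 22 transcription factor and chromatin genes, 10 had single-exon entries (12 entries, 774 reads), of which 4 were tested and 1, Glis3, was called. Each percentage called is read against 4.06 over all circRNAs tested, and 1 to 4 tested members per group are too few to compare with it. Kinases had 5 entries with 4 tested, calcium and ion handling genes 2 with 2 tested, matrix and adhesion genes 5 with 1 tested, and RNA-binding and splicing genes 6 with 3 tested, and none of these was called. The median log2 fold changes were 0.56, 1.71, 0.35, 1.19 and 0.29 in that order, against -0.19 over all circRNAs tested, and rest on 4, 4, 2, 1 and 3 members. The kinase median came from members with few reads, since Hipk3 held 161 of the 181 kinase reads and was at -0.02. The summed kinase reads were 22, 31 and 34 under HFD and 33, 34 and 27 under ND, which overlapped.

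The 55 entries that matched no exon were shorter and seen in fewer aortas than the rest. Their span had a median of 211 bases against 515 bases for matched entries, 47 of the 55 were seen in 1 aorta, and 42 had neither end at an exon boundary of the annotation. In 23 of them (57 reads, each in 1 aorta) the strand was opposite to that of the gene the table names, among them Vim, Gpnmb, Car3, Npc2, Sdc4 and Fn1. A match required an exon on the strand of the entry itself. That 0 of the 452 matched entries were on the opposite strand follows largely from this rule. The most abundant was an entry of 374 bases on chromosome 3 at Gm9762, a processed pseudogene, with 13, 7 and 16 reads under HFD and 20, 16 and 16 under ND. Sequence shared with the parent gene makes the origin of such reads uncertain. Flna, the actin cross-linker filamin A, had the most single-exon entries of any host (5 entries, 22 reads), and 4 of them matched no exon. Their reads were spread thinly, with circRNA4507 at 0, 4 and 3 and circRNA2755 at 3, 0 and 3 under ND and both at 0 under HFD, circRNA8119 at 4 in HFD replicate 2, circRNA4508 at 3 in ND replicate 2 and the exon-matching circRNA9085 at 2 in HFD replicate 3.

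Unmatched entries took a smaller share of single-exon reads in the HFD aortas. The shares were 5.60%, 7.64% and 7.94% under HFD and 9.01%, 9.05% and 10.04% under ND, with 7, 11 and 10 such entries detected under HFD and 14, 17 and 18 under ND. The shares did not overlap, and the difference was -2.31 percentage points (exact permutation test, two-sided, p = 0.1, n = 3 per diet). Without the Gm9762 entry the groups overlapped, with a difference of -2.10 points (exact permutation p = 0.2). Depth differed in the same direction, and its part was not tested. With unmatched entries left out of the single-exon reads and of the total, single-exon circRNAs held 10.2% ± 0.567 of reads under HFD and 8.67% ± 0.524 under ND (SD, n = 3 per diet), a difference of 1.53 points without overlap. Both comparisons were chosen after seeing the data.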

How the data were processed

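Aortic RNA of 3 HFD and 3 ND ApoE-/- mice was sequenced by the authors as read pairs on an Illumina HiSeq instrument from dUTP-stranded libraries. The labels name RNase R treatment to isolate circRNA, and the methods also name depletion of ribosomal RNA. Cutadapt, FastQC, TopHat-Fusion, CIRCexplorer and CIRI were used upstream, and the genome build is not given in the sources used here. The deposited table holds counts of back-spliced reads and, as a signal, the authors' SRPBM values for each aorta. It also holds a fold change, p-value, q-value and call for the diet comparison, which were not used. Labels put each column in its group, and nothing ties a replicate number across diets. Correlations of deviations between same-numbered aortas were -0.139, -0.134 and -0.0413, so they were not treated as pairs.

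Members and lists were chosen with earlier results of these data known. Counts were tested with edgeR 4.0.16 (quasi-likelihood, TMM, reads in at least 2 of 6 aortas) in R 4.3.3 with Benjamini-Hochberg adjustment over all 2564 circRNAs tested, and per-aorta values by exact permutation tests in scipy 1.17.1. The permutation p-values rest on the spread between these aortas. Those of the fitted models rest also on dispersions or variances shared across circRNAs, which matters most for members with few reads. DESeq2 1.42.0 and limma 3.58.1 (log2 of SRPBM plus 13.6) served as alternatives. Ends of entries were compared with exons of GENCODE vM21 on GRCm38. Named members were the 10 with most reads, those called by diet (up to 8 per direction), the most-read member of each of 15 known hosts, the entries of the host with most members, and the longest and shortest span in at least 2 aortas. Others, such as Snord15a and hosts of opposite-strand entries, were named after their values were seen. Total back-spliced reads were 4694 to 7585 per aorta. Wilson intervals and floors cover counting error only.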

Additional observations from a re-analysis of the deposited data

How the results depend on the processing

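The share of reads in single-exon circRNAs kept its direction in every alternative run, with a difference of 1.13 to 1.72 percentage points when 1 aorta was left out. The difference in members detected per aorta was -25.5 to -14.0 without 1 aorta and turned to 10.2 at an equal number of back-spliced reads. That construction removes differences in library depth and in back-spliced reads per mapped read together. With at least 2 reads required it was -2 (exact permutation p = 0.8). The share of single-exon reads in unmatched entries differed by -2.75 to -1.58 points without 1 aorta. The difference in reads per detected entry no longer reached p below 0.05 when the share of entries with 1 read was used instead (9.54 points fewer for single-exon circRNAs, exact permutation p = 0.0625). Leaving out the 10 most abundant single-exon entries and no multi-exon entry gave -0.053 reads, an alternative added after seeing the data that lowers the difference by construction and so shows no reversal. The median span was 473 bases over all members, 665 over those in at least 2 aortas and 589 when weighted by reads.

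The number of called members was 4 in the main model (2.15%, against 4.06% of all circRNAs tested), 2 with DESeq2 (1.08% against 0.897%), 2 without a filter (0.394% against 0.928%), 1 with at least 10 reads (1.54% against 8.22%) and 1 to 9 without 1 aorta. Replicate numbers do not pair the samples, and with the replicate number as a block there was 1 called member, while the whole table had 32 called circRNAs under the block and 104 without it. Glis3 was the one shared with the main model under the block.

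Several uncalled fold changes turned direction. The TMM factors were 1.07 to 1.14 in the HFD aortas and 0.864 to 0.942 in the ND aortas. Library size alone leaves these factors out, and the median log2 fold change over all circRNAs tested moved from -0.19 to 0.06. The cause of the turns in the other fits was not tested. With library size alone the log2 values were 0.23 for Hipk3, 0.22 for Tcf20, 0.074 for Gm9762, 0.14 for Setbp1, 0.079 for Insr, 0.12 for C230004F18Rik and 0.0073 for Lrp6, where the main values were negative. With DESeq2 they were 0.18 for Hipk3, 0.17 for Tcf20, 0.027 for Gm9762, 0.083 for Setbp1, 0.025 for Insr and 0.11 for C230004F18Rik. With at least 10 reads Hipk3 was at 0.087 and Tcf20 at 0.074, and with entries 1 base apart summed Hipk3 was at 0.050, Tcf20 at 0.034 and Lrp6 at 0.34. The block gave 0.61 for C230004F18Rik and 0.55 for Lrp6, and limma gave 0.46 and 0.34. Without 1 aorta the ranges were -0.24 to 0.16 for Hipk3, -0.20 to 0.041 for Tcf20, -0.40 to 0.026 for Gm9762, -0.31 to 0.021 for Setbp1, -0.41 to 0.21 for Insr, -0.72 to 2.06 for C230004F18Rik, -0.86 to 3.94 for Lrp6, -0.61 to 1.05 for Cdyl and -0.51 to 1.07 for Hivep1. The 3.94 of Lrp6 came from the fit without ND replicate 2, which held all its ND reads, so that value depends on the prior count of the model. With 442 of 507 members under 10 reads, the depth limits what a diet comparison of single circles can show.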
